A study of Rattus norvegicus with 10 samples.

Results

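The insulin-like growth factor (IGF) genes described here are the ligands Igf1 and Igf2, the receptors Igf1r and Igf2r, and the binding proteins Igfbp2, Igfbp3, Igfbp4, Igfbp5 and Igfbp6. They were chosen by name, and every probe set that the annotation of the Affymetrix rat genome array gives to one of these 9 genes alone was taken, which made 22 probe sets for 9 of the 14217 genes that the array names in this way. The study asked how the texture of the feed acts on the hypothalamus of weaning-stage rats. Male Wistar rats were 3 weeks old at the start, all received powdered feed for acclimatization, and then either solid chow (C group, Chow 1 to 5, 5 rats) or powdered feed (P group, Powder 1 to 5, 5 rats) for 8 days, so that both groups had known powder. The labels give an age of 4 weeks, and the hypothalamus of each rat was read on 1 array. No allele, transgene or agent other than the feed distinguished the groups.

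Igf1 and Igf2 are secreted peptides that act mainly through Igf1r, a receptor tyrosine kinase, whereas Igf2r, the cation-independent mannose phosphate receptor, takes Igf2 up for degradation. The binding proteins hold the ligands outside the cell and set how much of them reaches a receptor. Igf2 is an imprinted gene of the fetus, and in the rodent brain after birth its transcript is known mainly from the choroid plexus and the leptomeninges, the thin membranes around the brain.

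The stretch before the annotated start is shown for Igf2, Igfbp2 and Igfbp5, since the results below turn on Igf2 and Igfbp2, which moved together from rat to rat, and on Igfbp5, for which this was not found. Each is 250 bases from RefSeq (build GRCr8), written 5′ to 3′ on the strand of the gene, and capitals mark the GC box, here the 6 letters GGGCGG on either strand, which overlapped no other motif searched. RefSeq lists 2 starts for Igf2, at chr1:207250476-207250725 and chr1:207253981-207254230 on the minus strand. The stretches of Igfbp2 and Igfbp5 lie at chr9:81864561-81864810 on the plus strand and chr9:81914188-81914437 on the minus strand.
Igf2, first stretch: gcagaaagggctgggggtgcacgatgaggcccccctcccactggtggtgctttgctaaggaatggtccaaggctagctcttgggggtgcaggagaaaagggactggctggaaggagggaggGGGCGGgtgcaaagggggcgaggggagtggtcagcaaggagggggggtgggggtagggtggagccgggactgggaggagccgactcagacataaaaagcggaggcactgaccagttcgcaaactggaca
Igf2, second stretch: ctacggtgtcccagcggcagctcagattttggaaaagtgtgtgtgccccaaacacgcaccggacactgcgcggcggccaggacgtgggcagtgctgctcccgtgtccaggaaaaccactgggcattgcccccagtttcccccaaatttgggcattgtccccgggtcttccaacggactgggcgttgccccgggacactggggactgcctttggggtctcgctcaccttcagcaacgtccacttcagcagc
Igfbp2: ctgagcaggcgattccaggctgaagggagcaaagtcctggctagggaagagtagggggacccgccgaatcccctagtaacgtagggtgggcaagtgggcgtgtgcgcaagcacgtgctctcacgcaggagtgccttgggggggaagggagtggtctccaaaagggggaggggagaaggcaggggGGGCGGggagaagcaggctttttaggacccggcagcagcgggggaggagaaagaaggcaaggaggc
Igfbp5: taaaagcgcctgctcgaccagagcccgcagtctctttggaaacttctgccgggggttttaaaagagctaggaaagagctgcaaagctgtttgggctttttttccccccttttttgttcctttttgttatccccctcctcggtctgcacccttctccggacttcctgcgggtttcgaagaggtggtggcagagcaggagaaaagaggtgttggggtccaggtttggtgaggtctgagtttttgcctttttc

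The first Igf2 stretch and that of Igfbp2 held 1 GC box each, 129 and 66 bases before the start, and the second Igf2 stretch and that of Igfbp5 held none. A GC box stood in 30.5% of the 33469 RefSeq stretches of this length, so that such a match is common. None of these 4 held the letters TATAAA on either strand, which 12.9% of all stretches did. Among the other members the stretch of Igf1r held 1 GC box and that of Igf2r 2, and those of Igf1, Igfbp3, Igfbp4 and Igfbp6 held none. Igf1, of which a probe set also followed Igf2, was thus without the box, so that it did not mark the genes that moved together. Igfbp2 and Igfbp5 are neighboring protein-coding genes on chromosome 9, with no other protein-coding gene between them in the GRCr8 annotation, and are read from opposite strands.

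The values were on a log2 scale, and differences were taken as C minus P, given with the standard error (SE) of a linear model. Of the 22 probe sets, 5 varied between rats, with a standard deviation (SD) over the 10 rats above 0.1. They were 1367571_a_at for Igf2, 1367648_at for Igfbp2, 1388469_at and 1370333_a_at for Igf1 and 1370960_at for Igfbp5. The other 17 were nearly flat, as were most probe sets on the array after the summarization the authors used. Over the whole array 1391 of 31042 probe sets (4.48%) varied by this measure and 28736 (92.6%) had an SD below 0.001. Igf1r, Igf2r, Igfbp3, Igfbp4 and Igfbp6 were seen through flat probe sets only, so that the size of their differences between rats cannot be read. The label of the tissue was checked on its peptide genes. Avp, the vasopressin precursor, read 11.32 to 12.33 in C rats and 11.67 to 12.45 in P rats. Pmch, the melanin-concentrating hormone precursor, read 12.44 to 13.07 in C rats and 13.04 to 13.15 in P rats. They had the highest means of the 15 hypothalamic neuron genes found. Of these 15, 6 did not vary. Among the 6, Pomc (mean 6.75), Ghrh (7.23), Nr5a1 (6.26) and Otp (6.25) read low, and Cartpt (11.14) read high. Of 10 cortex and hippocampus genes found, 5 did not vary, but Camk2a (mean 9.85) and Nrgn (9.22) were read. The check thus rests on few genes and does not exclude neighboring tissue. Pairwise correlations between arrays were 0.997 to 0.999.

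**Figure D1:**
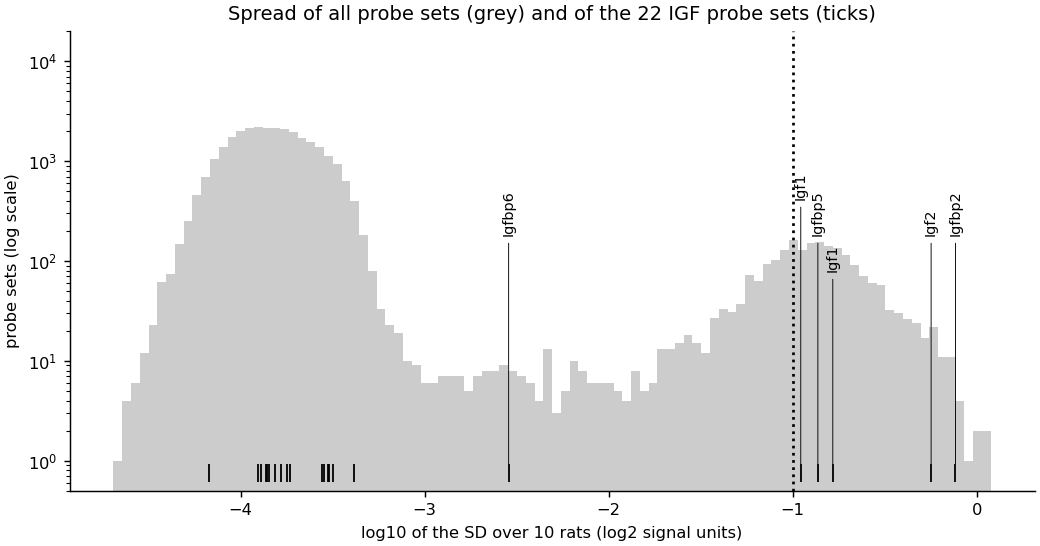
Spread of the 22 IGF probe sets (ticks) among all probe sets (grey bars). The horizontal axis is the log10 of the SD over the 10 rats, the vertical axis the number of probe sets on a log scale, and the dotted line marks an SD of 0.1. Igf2, Igfbp2, Igfbp5 and both varying Igf1 probe sets lie to its right, and 17 ticks lie to its left.

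Among the ligands, Igf2 read 11.33, 10.18, 9.89, 10.99 and 10.13 in Chow 1 to 5, against 9.62, 10.83, 10.89, 9.99 and 10.10 in Powder 1 to 5. Chow 1, Chow 4, Powder 2 and Powder 3 were high, the other 6 rats were low, and the groups overlapped. Igf2 fell into these 2 levels with a gap of 0.64 between them, wider than the spread of 0.57 within the 6 lower and 0.50 within the 4 higher rats. Each diet had 2 rats above the gap and 3 below it. The highest rat stood 3.27-fold above the lowest. The C group averaged 10.50 ± 0.62 and the P group 10.29 ± 0.55 (SD, n = 5 each), a difference of 0.22 (SE 0.37), and Chow 1 and Chow 4 were the 2 C rats that lay above every P rat. The other Igf2 probe sets (1371206_a_at, 1388252_at and 1398322_at) moved by less than 0.001 over the 10 rats.

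Igf1, the ligand that growth hormone drives in liver, was carried by 2 varying probe sets. The first, 1388469_at, read 7.35, 7.12, 6.97, 7.33 and 7.02 in Chow 1 to 5, against 6.84, 7.28, 7.24, 7.06 and 7.10 in Powder 1 to 5. The highest were again Chow 1, Chow 4, Powder 2 and Powder 3, the groups overlapped, and the whole span was 1.42-fold. The second, 1370333_a_at, read 7.69, 7.55, 7.52, 7.67 and 7.38 in Chow 1 to 5, against 7.42, 7.68, 7.63, 7.47 and 7.50 in Powder 1 to 5. Here too the same 4 rats were on top, while Chow 5 and not Powder 1 was lowest. The C group stood 0.06 (SE 0.11) above the P group by the first and 0.02 (SE 0.07) by the second. The remaining Igf1 probe set, 1382599_at, was flat.

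Among the binding proteins, Igfbp2, which binds Igf2 more tightly than Igf1, read 10.62, 9.21, 8.69, 10.39 and 9.36 in Chow 1 to 5, against 8.38, 10.03, 10.17, 8.83 and 9.23 in Powder 1 to 5. The 4 rats that were high in Igf2 were high here, Powder 1 was lowest in both, and the groups overlapped. Its span of 4.71-fold was the widest among the 22 probe sets. The C group averaged 9.66 ± 0.82 and the P group 9.33 ± 0.77 (SD, n = 5 each), a difference of 0.33 (SE 0.50).

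Igfbp5, a binding protein that also attaches to extracellular matrix, read 9.11, 8.71, 8.85, 9.04 and 8.84 in Chow 1 to 5, against 8.77, 8.79, 8.76, 8.94 and 8.72 in Powder 1 to 5. Chow 1 and Chow 4 were highest as in Igf2, but Powder 4 came next, Powder 2 and Powder 3 were not raised, and the lowest rat was Chow 2. The groups overlapped, and the span was 1.32-fold. The C group averaged 8.91 ± 0.16 and the P group 8.80 ± 0.09 (SD, n = 5 each), a difference of 0.12 (SE 0.08). The other 4 probe sets of Igfbp5 were flat. Igfbp6, a binding protein with a preference for Igf2, had 1 probe set (1372168_s_at) that moved a little more than the other flat ones, over a range of 0.0079 across the rats. The other 16 flat probe sets spanned at most 0.0015.

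**Figure D2:**
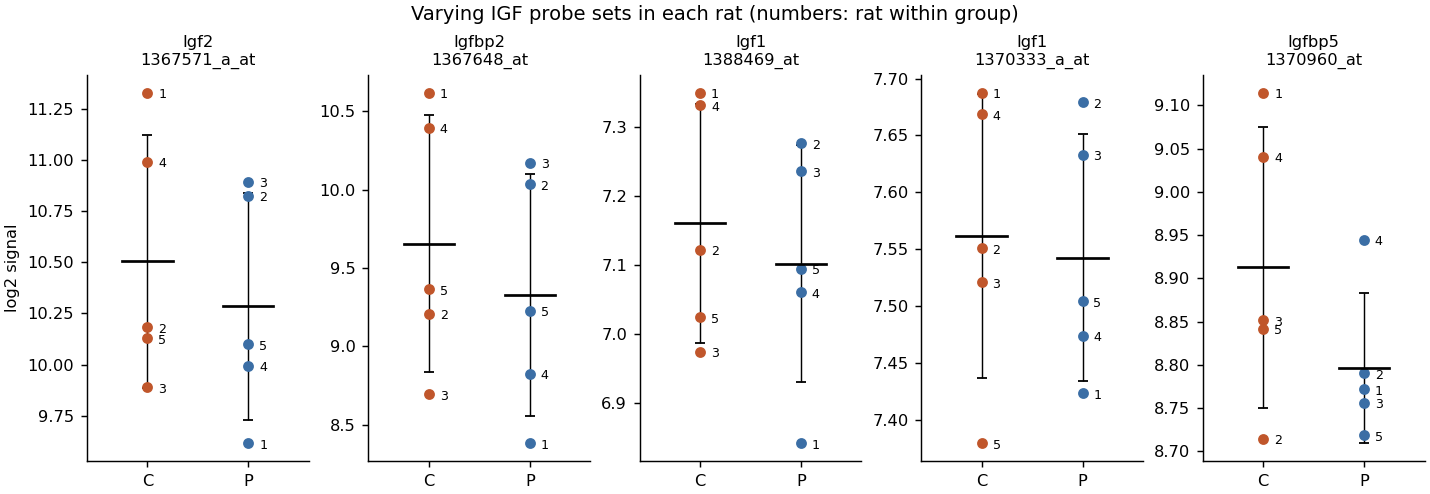
Log2 signal of the 5 varying IGF probe sets in each rat, with the C group left of the P group in every panel and an own vertical axis per panel. Points are rats numbered within their group, thick lines are group means and thin bars 1 SD on either side (n = 5 each). Chow 1 and Chow 4 are on top of the C group in all 5 panels, and Powder 2 and Powder 3 on top of the P group in all but Igfbp5.

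The question of whether the feed moved these genes was asked with rank products, the test the study used, with calls at a false discovery rate (FDR) below 0.05. In bulk tissue such as this, fewer cells of a type and less RNA per cell cannot be told apart. Rank products called 298 of 31042 probe sets higher in the C group (0.96%) and 249 lower (0.802%). These shares are over all probe sets, most of them flat, and are not those of varying probe sets. Of the 22 IGF probe sets 3 were called higher and 0 lower. They were Igfbp2 (FDR 0.0014), Igf2 (FDR 0.0061) and Igfbp5 (FDR 0.0411), and the varying probe sets of Igf1 were not called (FDR 0.184 for 1388469_at and 0.296 for 1370333_a_at). The median difference was 3.4e-05 over the 22 probe sets and -2.7e-06 over all probe sets. Rank sums in place of rank products called none of the 3, but they called only 1 probe set of the array higher and 7 lower. Igfbp5 was also lost with a filter on mean level (FDR 0.101) and at the stricter FDR of 0.01. The FDR of rank products came from shuffling probe sets within each array and not rats, so it does not measure the spread between rats. The differences of the 3 called probe sets were not larger than that spread. An exact two-sided permutation test over all assignments of 5 against 5 rats gave p = 0.508 for Igfbp2, p = 0.548 for Igf2 and p = 0.206 for Igfbp5, where the smallest p possible is 0.00794. Limma called 0 of 31042 probe sets (0%), with 1100 at an unadjusted p below 0.05, and its adjusted p was 0.9995 for each IGF probe set. In all 22 IGF probe sets the groups overlapped. Groups that did not overlap were found in 134 probe sets of the table (0.432%).

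The calls rested on few rats. Chow 1 and Chow 4, the 2 rats farthest from the median of Igf2, were the highest C rats in Igf2, Igfbp2 and Igfbp5. Without both of them rank products called Igf2 and Igfbp2 lower in the C group, among 260 probe sets in all (0.838%). The differences were then -0.22 for Igf2 and -0.24 for Igfbp2, and Igfbp5 was not called, with a difference of 0.0063. The call for Igf2 was lost without Chow 1 (FDR 0.114), without Chow 4 (FDR 0.0699) and without Powder 1 (FDR 0.0678). The call for Igfbp5 held only when Chow 2 or Powder 4 was left out, and was lost without any other of the 10 rats (highest FDR 0.217). Igfbp2 stayed called in 10 of 10 such fits (highest FDR 0.0404).

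Which of the other genes went with Igf2 from rat to rat was then asked with the Pearson correlation, tested by permuting the rats and adjusted over the 31041 other probe sets. Since Igf2 falls into 2 levels, r is also given within the 6 lower rats, where all 720 orders were used. The 4 higher rats are too few for a value of their own. Igfbp2 followed Igf2 with r = 0.987 over 10 rats (Spearman rho = 0.964, permutation p = 1e-05, the smallest that 100000 permutations can give, adjusted p = 0.0066) and with r = 0.948 within the 6 lower rats (exact permutation p = 0.0056). Without Chow 1 and Chow 4 r was 0.981. With each diet group centred on its own mean it was 0.987. Igfbp2 changed by 1.34 (SE 0.08) per unit of Igf2, both on the log2 scale.

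Igf1 followed Igf2 as well by its more variable probe set, 1388469_at, with r = 0.964 over 10 rats (rho = 0.952, permutation adjusted p = 0.0087), 0.947 without Chow 1 and Chow 4 and 0.941 within the 6 lower rats (exact permutation p = 0.0139). It changed by 0.28 (SE 0.03) per unit of Igf2. The other Igf1 probe set, 1370333_a_at, had r = 0.883 (rho = 0.806, permutation p = 0.0014), which did not pass the adjustment (adjusted p = 0.120). Within the 6 lower rats its r was 0.286 (exact permutation p = 0.601). Chow 5, the lowest rat in this probe set, weighed on both values, and over the 9 rats without it r was 0.961 (adjusted permutation p = 0.0479). The 2 probe sets of Igf1 correlated with each other at r = 0.896.

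Igfbp5 had r = 0.543 with Igf2 (rho = 0.285, permutation p = 0.107, adjusted p = 0.734). This value, of 1370960_at, rested on Chow 1 and Chow 4, without which r was -0.246 (exact permutation p = 0.561). It was -0.142 within the 6 lower rats, and 0.517 over 10 rats with each diet group centred on its own mean. The flat probe sets of Igfbp5, given below, kept a positive r without Chow 1 and Chow 4. A test that exchanged the standardized values of 2 genes within each rat, chosen after seeing the data, set these correlations against each other in 3 comparisons. The r of Igfbp2 exceeded that of Igfbp5 by 0.444 (exact permutation p = 0.0410 over 1024 exchanges, 0.0674 after adjustment over the 3). The r of Igf1 exceeded it by 0.420 for 1388469_at (exact p = 0.0449, adjusted 0.0674) and by 0.340 for 1370333_a_at (exact p = 0.145 before and after adjustment). The unadjusted p for Igfbp2 was above 0.05 without Chow 2, Chow 3, Chow 5, Powder 1 or Powder 4 (highest p = 0.0898, exact). None of the 3 differences thus passed 0.05 once adjusted.

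**Figure D3:**
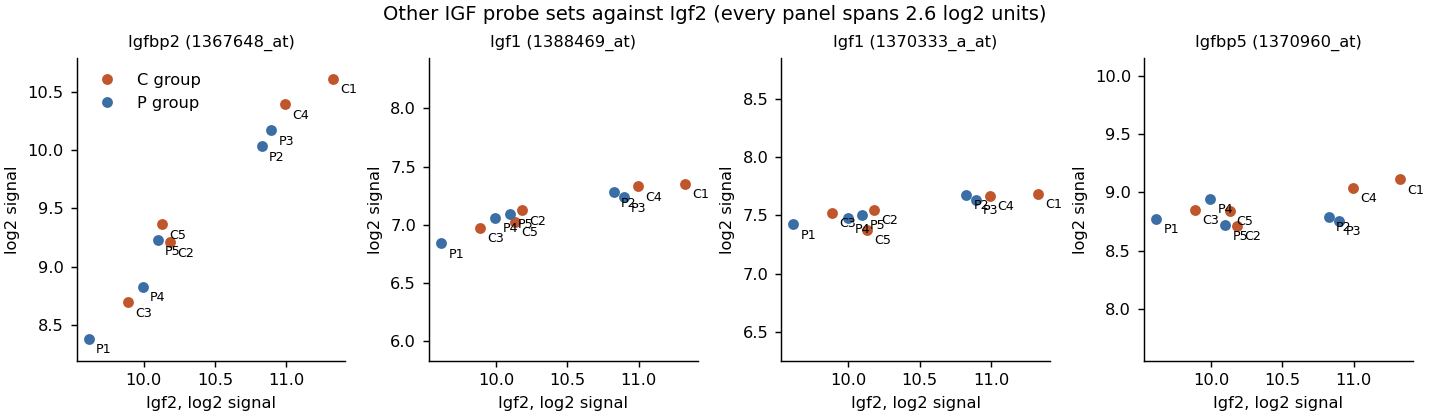
Log2 signal of Igfbp2, both Igf1 probe sets and Igfbp5 (vertical axes, the same span in every panel) against that of Igf2 (horizontal axis) in each rat. C1 to C5 are Chow 1 to 5 and P1 to P5 are Powder 1 to 5. Igfbp2 climbs with Igf2 through both clusters of rats, Igf1 climbs less steeply, and Igfbp5 stands high in C1 and C4 but not in P2 and P3.

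Of all 31041 probe sets 191 passed the test with a positive r (0.615%) and 4 with a negative r (0.0129%). Among these calls 60 fell on probe sets that did not vary by the measure above. Of the 4 varying IGF probe sets other than Igf2, 2 passed, both positive, those of Igfbp2 and Igf1 (1388469_at), and of the 17 flat ones 0 passed. Scaling changed both counts: 305 positive and 21867 negative calls came with quantile normalization and 312 and 28940 with centring of each array on its median. The array medians spanned 0.012, which is 77.5 times the median SD of a probe set, and followed Igf2 at r = 0.909, and centring subtracts them from every probe set, the flat ones included. The r of the varying IGF probe sets kept their sign and size under both, between 0.987 for Igfbp2 and 0.525 for Igfbp5. Among the 1390 other varying probe sets 135 passed with a positive r (9.71%) and 0 with a negative r, and their median r was 0.19. By size of r Igfbp2 was 8th among these, Igf1 was 46th and Igfbp5 310th, with 22.2% of them above it.

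**Figure D4:**
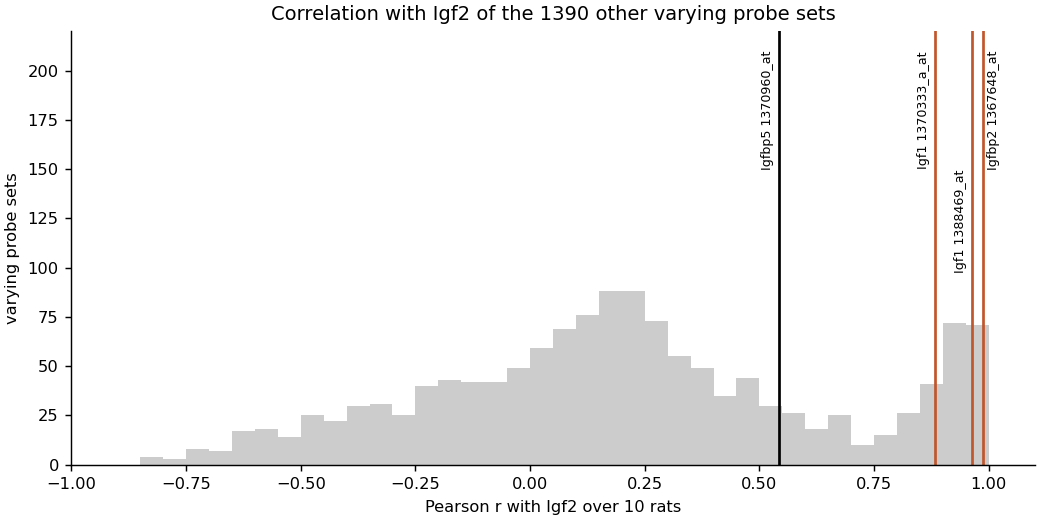
Pearson r with Igf2 over the 10 rats (horizontal axis) for the 1390 other varying probe sets (vertical axis, number of probe sets). Vertical lines mark the IGF probe sets, with Igfbp5 in black. A separate group of probe sets lies near 1 and holds Igfbp2 and Igf1 (1388469_at), while Igfbp5 lies outside it at 0.54.

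The members were also set against each other. With Igfbp2 as the gene followed, 178 probe sets passed with a positive r (0.573%), among them Igf1 (1388469_at) at r = 0.958 (permutation adjusted p = 0.0134, and 0.0501 with Igf1 as the gene followed). Within the 6 lower rats this r was 0.815 (exact permutation p = 0.0403). Igfbp5 had r = 0.495 with Igfbp2 and 0.489 with Igf1 (1388469_at), and without Chow 1 and Chow 4 these were -0.306 and -0.231. With Igfbp5 as the gene followed, 0 of 31041 probe sets passed with a positive (0%) or a negative r (0%).

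The flat probe sets moved by amounts far below those of the varying ones, and their r with Igf2 is given only as a description. It was positive in 12 and negative in 5 of the 17, with a median of 0.32. Among the receptors it was -0.345 and -0.209 for Igf1r and -0.158 and -0.231 for Igf2r. Among the binding proteins it was 0.734 and 0.601 for Igfbp3, the main carrier in blood, 0.296 for Igfbp4, and 0.871 and 0.787 for Igfbp6. The first of the Igfbp6 probe sets, 1372168_s_at, had rho = 0.879 and did not pass (adjusted permutation p of r = 0.165). Its r was 0.935 without Chow 1 and Chow 4 and 0.847 within the 6 lower rats. The other 4 probe sets of Igfbp5 had r between 0.316 and 0.718. The highest r was 0.876, for the flat probe set of Igf1 (adjusted permutation p = 0.135).

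Outside the 9 members, 39 of 42 listed genes of the IGF axis were found on the array, among them the insulin receptor, the substrates and kinases downstream of the receptors, proteases of the binding proteins and the hormones that set growth hormone release. Rank products called 0 of them in either direction (0.96% and 0.802% of all probe sets, as above), and 0 passed the correlation with Igf2. The median r was -0.13, against -0.04 over all probe sets. Of the 39 genes 37 did not vary by the measure above. The exceptions were Sst, somatostatin, with r = -0.64 (permutation adjusted p = 0.589), and Htra1, a protease that cuts binding proteins, with r = 0.12. H19, the untranslated RNA imprinted beside Igf2 in mouse and human, was flat with r = -0.13. Grb10, an imprinted adaptor of the receptors, had r = -0.63 and a small spread (SD 0.05), and Igfbp7, a related secreted protein, had r = 0.30 (SD 0.04).

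The genes most like Igf2 over the 10 rats, members aside, were by the rule the 10 with the highest r. They were Slc6a20a (0.994), a transporter of imino acids, Col1a2 (0.992), a chain of type I collagen, Slc13a4 (0.991), a sulfate transporter, and Slc22a6 (0.988), an organic anion transporter. Next came Ppic (0.986), a cyclophilin, Rbp4 (0.985), the carrier of retinol, Gng11 (0.984), a G protein subunit, Colec12 (0.983), a scavenger receptor, Loxl1 (0.983), which crosslinks elastin, and Ogn (0.982), a matrix proteoglycan. Their adjusted permutation p lay between 0.0066 and 0.0132. Slc6a20a read 10.03, 8.46, 8.09, 9.65 and 8.33 in Chow 1 to 5, against 7.79, 9.15, 9.46, 8.18 and 8.41 in Powder 1 to 5, with the same 4 rats on top as in Igf2. Slc6a20a, Col1a2, Slc13a4, Slc22a6 and Ogn are also in the leptomeningeal list given below. The genes most like Igfbp5 were Ier5 (0.873), Klf10 (0.848), Serping1 (0.839), Ptgs2 (0.830) and Fmo1 (0.818). Ier5, Klf10 and Ptgs2 are known as genes that stimulated cells switch on quickly. With an adjusted permutation p of 0.797 these 5 did not pass, and without Chow 1 and Chow 4 their r fell to between 0.329 and 0.683. The lowest r with Igfbp5 was larger in size, -0.920 for Lyrm1 (adjusted permutation p = 0.776, not passed). It was -0.837 without Chow 1 and Chow 4.

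Markers of cells that a dissected hypothalamus can hold moved with Igf2, and their part in the result was not tested. Leptomeningeal fibroblasts are cells of the leptomeninges that make collagen, and of the 25 genes listed for them 24 were found, and 23 of these varied, Foxc1 being flat. Beside collagens and matrix proteins the list held transporters, Ptgds and Cdh1, and whether all of these were read from fibroblasts was not tested. Rank products called 21 of the 24 higher in the C group and 0 lower, and limma called 0. The shares over all probe sets, most of them flat unlike these genes, were 0.96% and 0.802% by rank products. Without Chow 1 and Chow 4 rank products called 0 higher and 12 lower, against 0.151% and 0.838% of all. The positive correlation with Igf2 was passed by 19 of the 24, against 0.615% of all probe sets and 9.71% of the varying ones. The median r was 0.97 over the list, which was chosen with earlier results of these data known. The mean deviation of the 23 varying genes from their averages was 0.81, -0.22, -0.39, 0.64 and -0.24 in Chow 1 to 5, against -0.62, 0.22, 0.40, -0.39 and -0.22 in Powder 1 to 5. This score was high in the 4 rats that were high in Igf2, and its median was -0.22 in both groups. Chow 2, Chow 3 and Chow 5 averaged -0.28, against -0.12 in the 5 P rats. It passed with 255 of 31042 probe sets of positive r (0.821%), among them Igf2 (r = 0.989, permutation adjusted p = 0.0052), Igfbp2 (r = 0.981, adjusted p = 0.0052) and Igf1 by 1388469_at (r = 0.946, adjusted p = 0.0119). Within the 6 lower rats r was 0.975 for Igf2, 0.959 for Igfbp2 and 0.904 for Igf1. Igfbp5 had r = 0.594 with the score (permutation adjusted p = 0.613), and -0.298 without Chow 1 and Chow 4.

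The other 9 scores gave lower values with Igf2, and none of them passed the adjustment with any of the 5 varying IGF probe sets. The score of choroid plexus epithelium, the other known source of Igf2 in brain, rested on 2 varying genes of 13 found. They were Ttr (r = 0.06 with Igf2) and Enpp2 (r = 0.14), and with the other 11 not varying the score says little of this epithelium. These genes also differed from each other. Chow 2 and Chow 4 were highest in Enpp2 (11.52 and 11.46), but read 7.18 and 7.54 in Ttr against 9.50 in Chow 3. The same rats had the highest oligodendrocyte scores (0.26 and 0.29), and which cells Enpp2 stood for was not tested. The choroid plexus score was 0.57, -0.34, 0.72, -0.19 and -0.25 in Chow 1 to 5, against 0.27, -0.34, 0.21, -0.57 and -0.09 in Powder 1 to 5, and its r with Igf2 was 0.09. The r with Igf2 was 0.59 for astrocytes, 0.55 for cortex and hippocampus, 0.45 for microglia and macrophages, 0.30 for anterior pituitary and pars tuberalis, 0.27 for tanycytes and ependyma, 0.17 for oligodendrocytes, -0.25 for thalamus and -0.70 for hypothalamic neurons (permutation adjusted p = 0.555 for the last). Single genes of 2 of these lists passed the correlation with Igf2. In the tanycyte and ependyma list these were Rarres2, the chemerin precursor, at r = 0.97 (permutation adjusted p = 0.0066) and Vim, vimentin, at r = 0.93 (adjusted p = 0.0269), while the ependymal genes Tmem212 and Cdhr4 of the same list had r = -0.83 each and did not pass, so that its score averages genes of opposite sign. In the list of microglia and macrophages Lyve1, a marker of border macrophages, passed at r = 0.92 (adjusted p = 0.0181) with a flat probe set, and Mrc1, another, had r = 0.87 and did not pass (adjusted p = 0.0626). Endothelium and mural cells had 1 varying gene each and were not scored. Of 15 hypothalamic neuron genes found, rank products called 7 lower in the C group (0.802% of all probe sets, most of them flat) and 0 higher. Without Chow 1 and Chow 4, 5 were called lower, against 0.838% of all probe sets in that fit. Limma over all rats called 0. Igfbp5 had its largest r with hypothalamic neurons (-0.74), microglia and macrophages (0.70) and astrocytes (0.70), at adjusted permutation p of 0.510, 0.945 and 0.730.

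**Figure D5:**
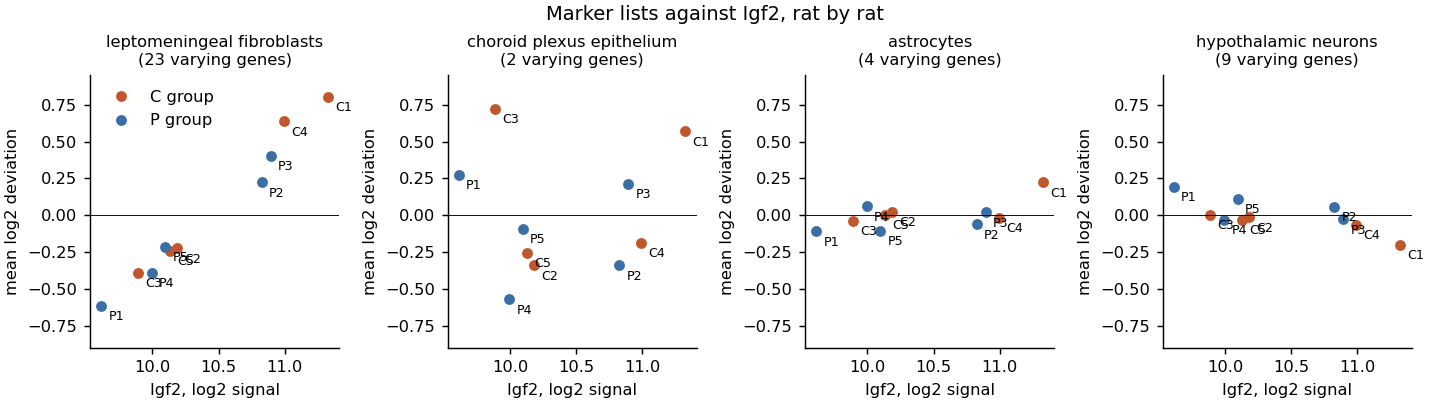
Scores of 4 marker lists, in log2 units (vertical axes) against the log2 signal of Igf2 (horizontal axis) in each rat, C1 to C5 being Chow 1 to 5 and P1 to P5 Powder 1 to 5. The leptomeningeal list climbs with Igf2 through all rats (r = 0.99), whereas choroid plexus (r = 0.09, from 2 unlike genes), astrocytes (r = 0.59) and hypothalamic neurons (r = -0.70) do not follow it in this way.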

How the data were processed

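Hypothalamic RNA of 10 male rats was read on 1 array each. The authors summarized the scans in R 2.7.2 by factor analysis for robust microarray summarization, and what they deposited is a log2 signal per probe set, ranging over 5.23 to 13.96. This method leaves a probe set almost flat where its probes share no variation across the arrays. A flat probe set can still read high, as 1386872_at of Igf2r did at a mean of 9.22. Arrays have no read depth, so that the spread among rats stands for the precision. The 57 control probe sets were left out, and 0 columns were unmapped.

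Members and gene lists were chosen with earlier results of these data known. All 22 probe sets of the members are described, and the most variable one stands for a gene. Genes most like a member, other members aside, are the 10 (Igf2) or 5 (Igfbp5) of highest r among varying probe sets naming 1 gene. The 13 lists (the IGF axis and 12 sets of cell or tissue markers) held 207 entries, of which 189 were matched. A score is the mean deviation of the varying genes of a list, for 10 lists with at least 2.

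Rank products (25 C to P pairs, 100 permutations) and correlations were computed in Python 3.11.15 (numpy 2.4.6, pandas 2.3.3, scipy 1.17.1). The diet effect was fitted by limma 3.58.1 (R 4.3.3), with Benjamini-Hochberg adjustment over 31042 probe sets. Correlations were tested by 100000 permutations of the rats, or all orders with fewer than 10 rats, two-sided. Both were checked on simulated data. Figures were drawn with matplotlib 3.10.9. Alternatives were a filter on mean level, quantile normalization, median centring, rank sums, a stricter FDR of 0.01, a replicate block, trended and robust variances, means over probe sets, Spearman rho, diet-centred values, a restriction to varying probe sets, and omission of each rat in turn or of both Chow 1 and 4. The 6 rats below the gap in Igf2 and the exchange test were added after seeing the data. Nothing in the labels says that rats of 1 group came from separate litters or cages. The p-values of limma, of the correlations and of the exact diet test measure the spread between these rats. The FDR of rank products does not, since its permutations shuffle probe sets within each array.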

Additional observations from a re-analysis of the deposited data

Results flagged for a closer look

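2 scores set beside the IGF genes had a rat far from the other 4 of its group, both times Chow 1, the rat that was also highest in Igf2, Igfbp2 and Igfbp5. The astrocyte score was 0.226 in Chow 1, and the gap to the next C rat made up 0.770 of the range of the group. The score of cortex and hippocampus was 0.657 in Chow 1, with a gap of 0.808 of that range. In all 30 groups of 5 rats were looked at in this way, and chance flags about 1 in 20 groups. The IGF probe sets had no such rat in either group.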

How the results depend on the processing

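There were 10 rats, 5 per diet, most IGF probe sets were flat, and the 2 levels of Igf2 left 6 rats for a correlation within a level. Rank product calls over all probe sets numbered 547, and 215 with the filter on mean level, 8 with rank sums, 201 at the stricter FDR, 307 without Chow 1 and 4, and 302 to 548 with each rat left out. IGF probe sets called higher numbered 3, 2 with the filter on mean level or at the stricter FDR (Igfbp5 lost), 0 with rank sums or without Chow 1 and 4 (2 were then called lower), and 1 to 3 with each rat left out. Limma made 0 calls, 0 with the replicate block, and 0 to 1 with each rat left out. Same-numbered rats deviated together at r between -0.33 and 0.28, so the numbers share only a label.

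Without Chow 1 and 4 the difference turned to -0.22 for Igf2, -0.24 for Igfbp2, and -0.059 (1370333_a_at) and -0.061 (1388469_at) for Igf1. With each rat left out it was 0.013 to 0.37 for Igf2, 0.087 to 0.57 for Igfbp2, 0.066 to 0.17 for Igfbp5, -0.013 to 0.064 for Igf1 by 1370333_a_at and -0.0065 to 0.11 by 1388469_at.

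Probe sets correlated with Igf2 numbered 195, and 63 by Spearman rho, 22172 with quantile normalization, 29252 with median centring, 0 without Chow 1 and 4, and 63 to 168 with each rat left out. Without Chow 1 and 4 r was 0.981 for Igfbp2 (adjusted permutation p = 0.123) and 0.947 for Igf1 by 1388469_at (adjusted permutation p = 0.275), and Igfbp5 turned to -0.246. In the 6 lower rats r was 0.948, 0.941 and -0.142 for the same genes, and none passed the adjustment. The smallest p that all orders allow was 0.0014 there and 2.5e-05 without Chow 1 and 4. Adjusted over 31041 probe sets, neither fit could readily pass a gene, so these failures say little. With each rat left out r was 0.984 to 0.993 for Igfbp2, 0.959 to 0.970 for Igf1 by 1388469_at, 0.858 to 0.961 by 1370333_a_at and 0.260 to 0.675 for Igfbp5. Igf1 by 1370333_a_at passed the adjustment only with quantile normalization, median centring, the restriction to varying probe sets, or without Chow 5.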
